A study of Mus musculus with 8 samples.

Results

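The proteasome genes of the mouse islet were followed here: all genes whose symbol starts with Psma, Psmb, Psmc, Psmd, Psme, Psmf or Psmg and a number, with pseudogenes left out. The rule gave 50 genes of the 30406 gene IDs listed for all libraries. Of these, 3 encode inducible catalytic subunits, 3 the PA28 activator, 3 the constitutive catalytic subunits, 11 other subunits of the 20S core, 2 tissue-restricted core subunits, 6 ATPases and 11 other subunits of the 19S particle, 7 assembly chaperones, and 3 other activators or the inhibitor PI31. The last gene, *Psmc3ip*, carries a matching name but encodes a protein of meiotic recombination and not a subunit. Islets of male C57BL/6 mice (C57BL6/J in the study's methods) of 12 to 16 weeks were pooled from 10 mice in each of 2 replicates. Each pool was divided over 4 conditions and cultured for 18 h as intact islets: untreated, with 10 U/mL human IL-1β and 150 U/mL mouse IFN-γ ("cytokines"), with the same cytokines and 2 mM of the nitric oxide synthase inhibitor NMMA, or with 2 mM NMMA alone. The islets were then dispersed, and RNA of single cells was captured in droplets and counted as UMIs, which stand for captured molecules. A value therefore describes a pool of mice, and 2 libraries stand for each condition. Tests within a class measure the spread between the 2 pools, taken over all conditions of the fit and with information shared over genes. Tests between classes, or between groups of cells in a library, have the library as a block. They measure the spread left after that block, which is not the spread between pools.

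The proteasome degrades proteins marked with ubiquitin. Its 20S core is a barrel of rings of α subunits (Psma genes) and β subunits (Psmb genes), of which *Psmb5*, *Psmb6* and *Psmb7* carry the proteolytic sites. IFN-γ makes cells express *Psmb8*, *Psmb9* and *Psmb10*, which take the places of *Psmb5*, *Psmb6* and *Psmb7* in newly built cores and so form the immunoproteasome, whose peptides feed MHC class I presentation. The 19S particle, built from ATPases (Psmc genes) and other subunits (Psmd genes), recognises and unfolds ubiquitinated proteins, while PA28, made from *Psme1* and *Psme2*, is another cap that is induced by IFN-γ. In β-cells the peptides presented on MHC class I are targets of autoreactive T cells, and a combination of IL-1β and IFN-γ also induces *Nos2*, the inducible nitric oxide synthase.

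*Psmb9* (chr17:34181987-34187764) and *Psmb8* (chr17:34197721-34201454) lie in the MHC on chromosome 17 (GRCm38, GENCODE M21), with the peptide transporter genes *Tap1* and *Tap2*, and the stretch from *Psmb9* to *Tap2* spans 34.3 kb. *Psme1* (chr14:55578123-55581529) and *Psme2* (chr14:55587441-55591113) are neighbours on chromosome 14, with intervals that start 9.3 kb apart. *Psmb10* (chr8:105935735-105938444) stands alone. The 250 bases before the RefSeq start are shown for the 3 inducible catalytic subunits, *Psme1* of PA28 and the constitutive *Psmb5* and *Psmb6*. They come from RefSeq promoter windows of GRCm38.p6 and are written 5′ to 3′ in the direction of the gene. RefSeq and GENCODE starts differ. The stretches of *Psmb8*, *Psmb9* and *Psme1* lie inside the GENCODE intervals, and those of *Psmb10* and *Psmb5* lie partly inside. The positions are chr17:34197945-34198194, plus strand for *Psmb8*, chr17:34187331-34187580, minus strand for *Psmb9*, chr8:105938393-105938642, minus strand for *Psmb10*, chr14:55578244-55578493, plus strand for *Psme1*, chr14:54617996-54618245, minus strand for *Psmb5*, and chr11:70525107-70525356, plus strand for *Psmb6*. Capitals mark a match to the antioxidant response motif TGACNNNGC in *Psmb5* and *Psmb6*.
Psmb8: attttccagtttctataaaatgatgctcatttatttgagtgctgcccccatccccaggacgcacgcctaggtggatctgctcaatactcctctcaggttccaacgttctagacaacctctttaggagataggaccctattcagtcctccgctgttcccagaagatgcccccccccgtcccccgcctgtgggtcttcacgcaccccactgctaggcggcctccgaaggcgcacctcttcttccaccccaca
Psmb9: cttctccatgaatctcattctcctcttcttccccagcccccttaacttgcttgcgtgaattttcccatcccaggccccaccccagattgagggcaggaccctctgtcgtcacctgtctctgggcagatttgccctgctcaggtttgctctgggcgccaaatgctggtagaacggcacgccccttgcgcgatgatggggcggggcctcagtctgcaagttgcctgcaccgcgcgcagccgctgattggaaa
Psmb10: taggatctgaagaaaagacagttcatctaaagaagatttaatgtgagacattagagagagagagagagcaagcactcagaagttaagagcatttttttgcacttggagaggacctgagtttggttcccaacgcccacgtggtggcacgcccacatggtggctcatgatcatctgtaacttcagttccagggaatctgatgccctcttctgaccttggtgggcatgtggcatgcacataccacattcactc
Psme1: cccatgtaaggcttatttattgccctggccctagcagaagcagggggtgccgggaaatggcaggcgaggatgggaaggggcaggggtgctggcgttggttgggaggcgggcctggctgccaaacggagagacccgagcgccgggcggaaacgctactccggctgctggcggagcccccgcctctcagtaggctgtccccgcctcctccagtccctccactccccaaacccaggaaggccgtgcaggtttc
Psmb5: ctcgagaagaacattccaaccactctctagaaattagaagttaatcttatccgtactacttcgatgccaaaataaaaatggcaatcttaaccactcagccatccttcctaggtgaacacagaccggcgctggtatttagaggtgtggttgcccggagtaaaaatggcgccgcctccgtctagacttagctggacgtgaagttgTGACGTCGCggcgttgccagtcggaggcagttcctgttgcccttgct
Psmb6: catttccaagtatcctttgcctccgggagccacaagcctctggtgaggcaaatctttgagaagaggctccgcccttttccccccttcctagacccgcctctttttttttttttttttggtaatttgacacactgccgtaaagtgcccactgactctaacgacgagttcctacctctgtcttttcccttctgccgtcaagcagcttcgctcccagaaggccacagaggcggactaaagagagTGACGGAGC

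Motifs were searched on both strands in windows from 250 bases before to 50 bases after the RefSeq start, which exist for 42 of the 50 genes. The interferon motif GAAANNGAA was found in 7 windows, those of *Psmb3*, *Psmb4*, *Psmc2*, *Psmd4*, *Psmd9*, *Psme1* and *Psmg4*, against 8.56% of 32851 windows of all genes, and in *Psme1* it lies after the start, outside the stretch printed above. TGACNNNGC was found in *Psmb5*, *Psmb6*, *Psmc6*, *Psmd9*, *Psmd12* and *Psme4*, against 12.4% of all windows, and the NF-κB motif in *Psmd12*, against 4.51%. The windows of *Psmb8*, *Psmb9* and *Psmb10* held no match to any of these motifs. For *Psmb8* and *Psmb9* these windows lie inside the GENCODE intervals, so the bases before the GENCODE starts were not searched. The window of *Psmb9* overlaps that of *Tap1*, read in the other direction, by 275 bases, and the RefSeq starts of both genes are 226 bases apart. These matches describe letters in a window, and binding was not measured.

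The libraries held 26549922 to 50731370 UMIs, and 10876 of 17426 barcodes were kept, of which at most 2 were shared by any pair of libraries. Cells were named by their clusters and markers, and the UMIs of each class were summed within each library. The sums of β-cells held 11539648 to 35166383 UMIs (446 to 1662 cells), those of α-cells 842249 to 2016014 (52 to 106 cells), of macrophages 341918 to 718709 (28 to 72 cells) and of endothelial cells 213223 to 685741 (14 to 52 cells). For δ-cells, 7 libraries held 160695 to 960394 UMIs (10 to 88 cells). The library with cytokines of replicate 1 had only 7 δ-cells and was left out, so that the values of δ-cells with cytokines rest on 1 library of 10 cells. All 9 markers of β-cells were found in every β-cell sum, where they took 38.7 to 48.1% of the UMIs, and the lists of macrophages and endothelial cells were likewise complete in their own sums. Of the δ-cell list, *Lepr* was at 0 in sums of all 4 conditions, and *Ghsr* in the 1 sum with cytokines. In all 5 classes, most cells exposed to cytokines lie in other clusters than most cells without them. Exceptions are a β-cell cluster led by heat-shock genes, a macrophage cluster and an α-cell cluster, each with cells of all 8 libraries. Replicates were also divided over clusters, in β-cells and in α-cells without cytokines. Of untreated β-cells, a cluster held 1610 cells of replicate 1 and 3 of replicate 2, and another 0 and 492. With cytokines alone, a cluster held 1034 and 20 β-cells of these replicates, and another 2 and 426. Levels are given in CPM, the UMIs of a gene over all UMIs of the sum with TMM scaling, in the order replicate 1 and replicate 2. Changes are log2 values from the quasi-likelihood test of edgeR, and a gene counts as called where its p, adjusted over all genes of that fit, is under 0.05.

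In β-cells, cytokines raised the inducible catalytic subunits and PA28 most among the proteasome genes. *Psmb8*, which replaces *Psmb5*, stood at 40.3 and 42.5 CPM in untreated β-cells and at 735 and 515 CPM after cytokine exposure (log2 change 3.92 ± 0.22 (SE), edgeR adjusted p = 7.33e-06). *Psmb9*, which replaces *Psmb6*, went from 18.1 and 17.3 CPM to 338 and 246 CPM (4.04 ± 0.23 (SE), edgeR adjusted p = 7.47e-06), and *Psmb10*, which replaces *Psmb7*, from 45.8 and 44.6 CPM to 421 and 284 CPM (2.96 ± 0.24 (SE), edgeR adjusted p = 3e-05). In these genes the libraries with cytokines lay far above the untreated ones in both replicates, and the library of replicate 1 lay above that of replicate 2. *Psme1*, the α subunit of PA28, held 66.1 and 62.8 CPM untreated and 401 and 270.0 CPM with cytokines (log2 change 2.38 ± 0.21 (SE), edgeR adjusted p = 5.75e-05). *Psme2*, its β subunit, held 110.3 and 77.3 CPM untreated and 788 and 401 CPM with cytokines (2.66 ± 0.49 (SE), edgeR adjusted p = 0.00606), with the largest SE of the genes so far. *Psme2b*, a near-identical copy of *Psme2* whose reads cannot be told apart with certainty, was at 1.64 and 0.546 CPM and reached 26.6 and 13.8 CPM (4.08 ± 0.62 (SE), edgeR adjusted p = 0.00301). *Psme2b* also overlaps other genes on its strand, which makes its counts less certain still. The 5 genes *Psmb8*, *Psmb9*, *Psmb10*, *Psme1* and *Psme2* had a median log2 change of 2.96.

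The constitutive subunits that the inducible ones replace moved much less. *Psmb5*, which carries the chymotrypsin-like site, held 132 and 109 CPM untreated and 195.9 and 151 CPM with cytokines and did not pass the test (log2 change 0.53 ± 0.23 (SE), edgeR adjusted p = 0.0963). *Psmb6*, the caspase-like subunit, rose from 126 and 105 to 234 and 168 CPM (0.80 ± 0.23 (SE), edgeR adjusted p = 0.0209). *Psmb7*, the trypsin-like subunit, gave 70.8 and 75.0 CPM untreated and 96.0 and 87.6 CPM with cytokines (0.33 ± 0.13 (SE), edgeR adjusted p = 0.0604). In all 3 genes both libraries with cytokines lay above both untreated libraries, but only *Psmb6* was called. The share of all genes without such an overlap was not counted, so no change is read from this order. The call of *Psmb6* was lost without untreated replicate 1 (log2 change 0.94), without cytokines replicate 1 (0.54) and without untreated replicate 2 (0.67), with adjusted p of 0.0525, 0.148 and 0.119 from edgeR. With the replicate as a block, *Psmb5* and *Psmb7* were called as well, at log2 changes of 0.52 and 0.33 (edgeR adjusted p = 9.49e-05 and 0.00527).

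**Figure D1:**
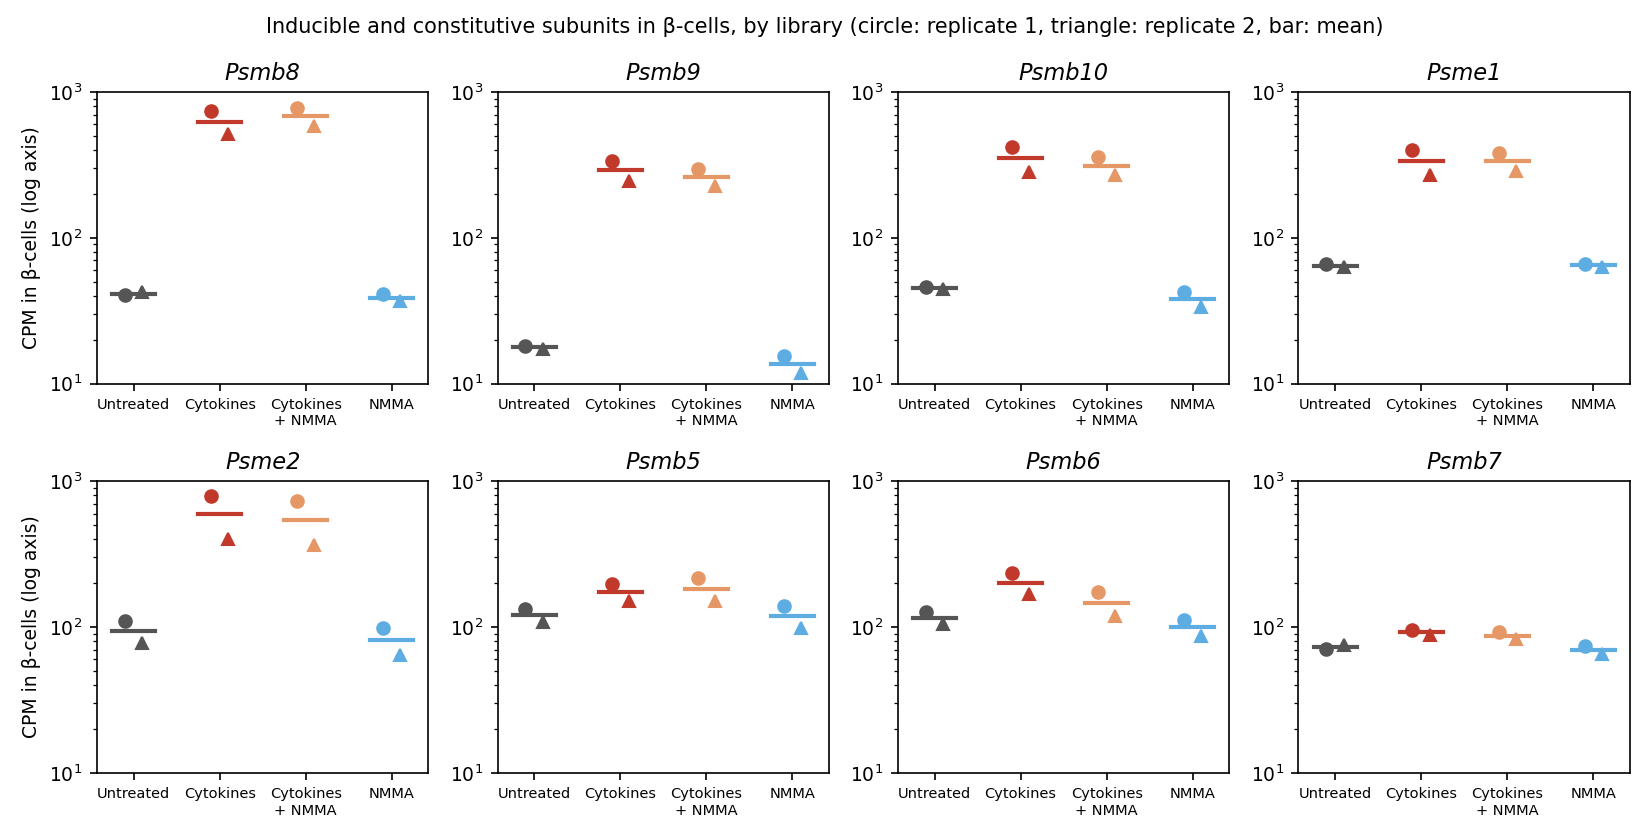
Levels of the inducible subunits, PA28 and the constitutive catalytic subunits in the β-cell sum of each library, in CPM on a log axis, by condition. Circles are replicate 1, triangles replicate 2 and bars the mean of both; Psmb8 lies at 40.3 and 42.5 CPM untreated and at 735 and 515 CPM with cytokines, while Psmb7 stays between 65.7 and 96.0 CPM in all 8 libraries.

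Counted over all proteasome genes, 32 of the 48 tested were higher with cytokines in β-cells and 1 was lower, where 23.7% of all genes tested were called higher and 22.4% lower. The median log2 change over the 48 genes was 0.78, against 0.00083 over all genes tested. All 3 inducible subunits and all 3 PA28 genes were called, 1 of 3 constitutive catalytic subunits, 7 of 11 other core subunits, 5 of 6 ATPases, 7 of 11 other 19S subunits and 3 of 7 chaperones, all higher. Over the 31 constitutive subunits of core and 19S particle, 20 rose, none of the other 11 was called lower, and the median log2 change was 0.70. The 2 tissue-restricted core genes, *Psma8* of the testis and *Psmb11* of the thymic cortex, held at most 0.1 CPM in any β-cell sum and were not tested. Scaled by total UMIs, which shifts the median of all genes by -0.22, the calls were 25 higher and 2 lower. Of the 33 calls, 23 held when each library was left out in turn and 33 with scored doublets left out.

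Within the constitutive core, the outer rings held both the largest and the smallest response. *Psma7* rose from 167 and 159.5 CPM to 514 and 418 CPM (log2 change 1.51 ± 0.17 (SE), edgeR adjusted p = 0.000181), while *Psma4* was at 66.2 and 62.7 CPM and then at 76.9 and 66.6 CPM (0.16 ± 0.16 (SE), edgeR adjusted p = 0.457). *Psma6* (1.32), *Psma2* (1.22) and *Psma3* (0.94) followed *Psma7* and kept their calls in every leave-one-out fit. Of the β rings, *Psmb4* (0.78) and *Psmb1* (0.56) rose, and both calls were lost without cytokines replicate 1 and without untreated replicate 2. *Psma5* (0.70) rose as well, while *Psmb2* (0.58), *Psma1* (0.50) and *Psmb3* (0.45) did not pass the test. Reads of *Psma2* and of *Psmb7* can overlap another gene on the same strand, which holds for 10 of the 50 genes and makes their counts less certain. The others are *Psmb5*, *Psmc5*, *Psmd1*, *Psmd12*, *Psmd13*, *Psmd14*, *Psme2b* and *Psmg3*.

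In the 19S particle, the ATPases rose almost as a group. *Psmc5* stood at 91.4 and 86.5 CPM untreated and 198 and 154 CPM with cytokines (log2 change 0.99 ± 0.19 (SE), edgeR adjusted p = 0.00274), and *Psmc6*, the one ATPase without a call, at 54.3 and 63.2 CPM and then at 75.7 and 70.9 CPM (0.32 ± 0.12 (SE), edgeR adjusted p = 0.0595). *Psmc2* (0.85), *Psmc3* (0.81), *Psmc1* (0.70) and *Psmc4* (0.61) lay between. The other subunits were divided. *Psmd4*, which binds ubiquitin, rose from 74.5 and 81.9 to 192 and 154 CPM (1.15 ± 0.14 (SE), edgeR adjusted p = 0.000321), and *Psmd14*, the deubiquitinase of the lid, from 28.5 and 29.5 to 62.8 and 47.6 CPM (0.93 ± 0.15 (SE), edgeR adjusted p = 0.00101). The lid subunits *Psmd7* (0.98), *Psmd8* (0.90), *Psmd12* (0.89), *Psmd11* (0.62) and *Psmd13* (0.49) rose with them. The scaffold subunits *Psmd1* (0.07) and *Psmd2* (0.26) and the lid subunits *Psmd3* (0.22) and *Psmd6* (-0.24) were not called. *Psmd6*, the lowest of the group, held 79.1 and 64.1 CPM untreated and 68.2 and 53.0 CPM with cytokines, and the conditions overlapped.

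Among chaperones and regulators, responses went both ways. *Psmd10* (gankyrin), which guides the ATPases into the base of the 19S particle, rose from 15.3 and 17.6 to 33.4 and 29.1 CPM (log2 change 0.93 ± 0.14 (SE), edgeR adjusted p = 0.000734), as did *Psmg4* (0.83) and *Psmd9* (0.58). *Psmg1*, which helps to build the core, was at 23.4 and 18.6 CPM untreated and 19.8 and 18.8 CPM with cytokines (-0.12 ± 0.19 (SE), edgeR adjusted p = 0.627), and *Psmd5* (0.09), *Psmg2* (0.37) and *Psmg3* (0.09) did not pass either. *Psme4*, the activator PA200, was the only proteasome gene that fell, from 46.9 and 51.6 CPM to 23.6 and 28.2 CPM (-0.93 ± 0.13 (SE), edgeR adjusted p = 0.000577). The nuclear activator *Psme3* went the other way, from 21.7 and 21.2 to 51.8 and 40.2 CPM (1.10 ± 0.16 (SE), edgeR adjusted p = 0.000611). *Psmf1*, which encodes the inhibitor PI31, rose most of these, from 18.0 and 14.8 to 54.2 and 35.0 CPM (1.44 ± 0.21 (SE), edgeR adjusted p = 0.000784). *Psmc3ip* rose by 0.78 on the log2 scale, from 1.75 and 2.30 to 3.11 and 3.84 CPM, a call that was lost with DESeq2 and without a low-count filter.

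Markers of macrophages, a cell type with high *Psmb8*, were near 0 in the β-cell sums. The 12 markers together took 0.00539 to 0.00753% of the UMIs untreated and 0.0100 to 0.0200% with cytokines, and *Adgre1*, a defining marker, was at 0 in untreated libraries and in 1 with cytokines. *Cd74*, one of the 12, is itself a gene that IFN-γ is known to induce. The β-cell markers took 44.3 to 47.5% untreated and 39.7 to 40.6% with cytokines. The part of these shifts in the values above was not tested.

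**Figure D2:**
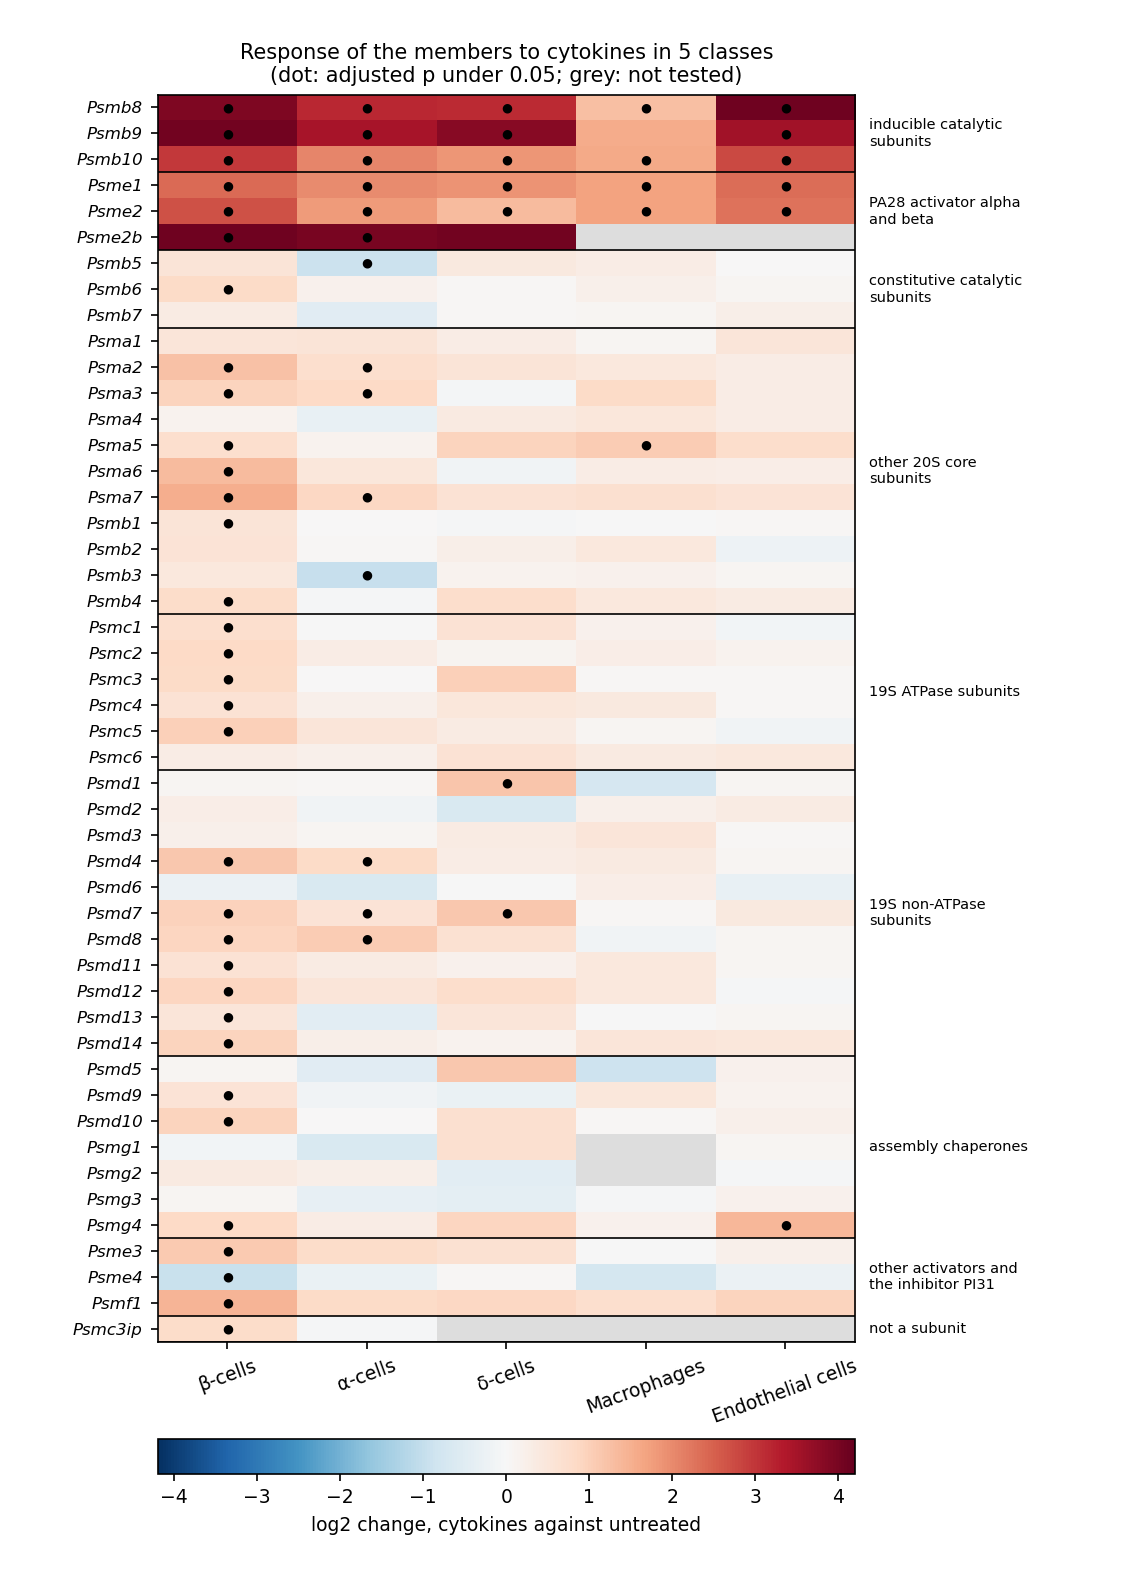
Log2 change with cytokines against untreated of the proteasome genes (rows, by role) in 5 classes of islet cells (columns), where red is higher, blue is lower, grey is not tested and a dot marks an adjusted p under 0.05. The top rows, Psmb8 to Psme2, are red in all classes. The constitutive subunits have dots mostly in the β-cell column, 20 of 31 against 6 higher and 2 lower in α-cells. Of all genes tested, 23.7% were called higher in β-cells, and 12.9% higher and 8.87% lower in α-cells, whose sums held fewer UMIs.

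A share shows the balance within the catalytic pairs directly. The UMIs of *Psmb8*, *Psmb9* and *Psmb10* were divided by those of these genes and of *Psmb5*, *Psmb6* and *Psmb7*, within each class and library, with exact binomial 95% intervals that cover counting error only. UMIs are counted near the 3′ end, so transcript length does not enter, but genes may be captured with different efficiency, and protein was not measured. In β-cells the inducible share was 24.1% (interval 23.4 to 24.8%) and 26.6% (interval 25.5 to 27.7%) untreated, and 74.0% (interval 73.6 to 74.3%) and 72.0% (interval 71.4 to 72.6%) with cytokines. With cytokines and NMMA it was 74.8% and 75.4%, and with NMMA alone 23.4% and 24.7%. Thus the inducible genes gave the minority of these transcripts in every library without cytokines and the majority in every library with them. The pairs differed in level. *Psmb9* made up 12.6% and 14.2% of its pair with *Psmb6* untreated and 59.1% and 59.4% with cytokines. *Psmb8* made up 23.4% and 28.1% and then 78.9% and 77.4% of its pair with *Psmb5*, and *Psmb10* 39.3% and 37.3% and then 81.4% and 76.4% of its pair with *Psmb7*.

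The 3 inducible genes were also counted within single β-cells, after each cell was thinned to 10000 UMIs and shallower cells were left out. The share of cells with a UMI of all 3 genes was 3.35% (interval 2.52 to 4.36%, 12.03% before thinning) in untreated replicate 1 and 3.33% (interval 1.95 to 5.28%, 17.7% before thinning) in replicate 2. With cytokines it was 81.9% (interval 79.5 to 84.1%, 92.4% before thinning) and 64.5% (interval 60.0 to 68.8%, 74.2% before thinning). With cytokines and NMMA it was 80.8% and 66.9%. Cells with none of the 3 genes fell from 38.1 and 41.0% untreated to 1.81 and 4.62% with cytokines. Thus most β-cells of both pools held all 3 inducible transcripts after 18 h. Free RNA can add UMIs to cells, and no class here lacks these genes, so the background of such shares was not measured.

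**Figure D3:**
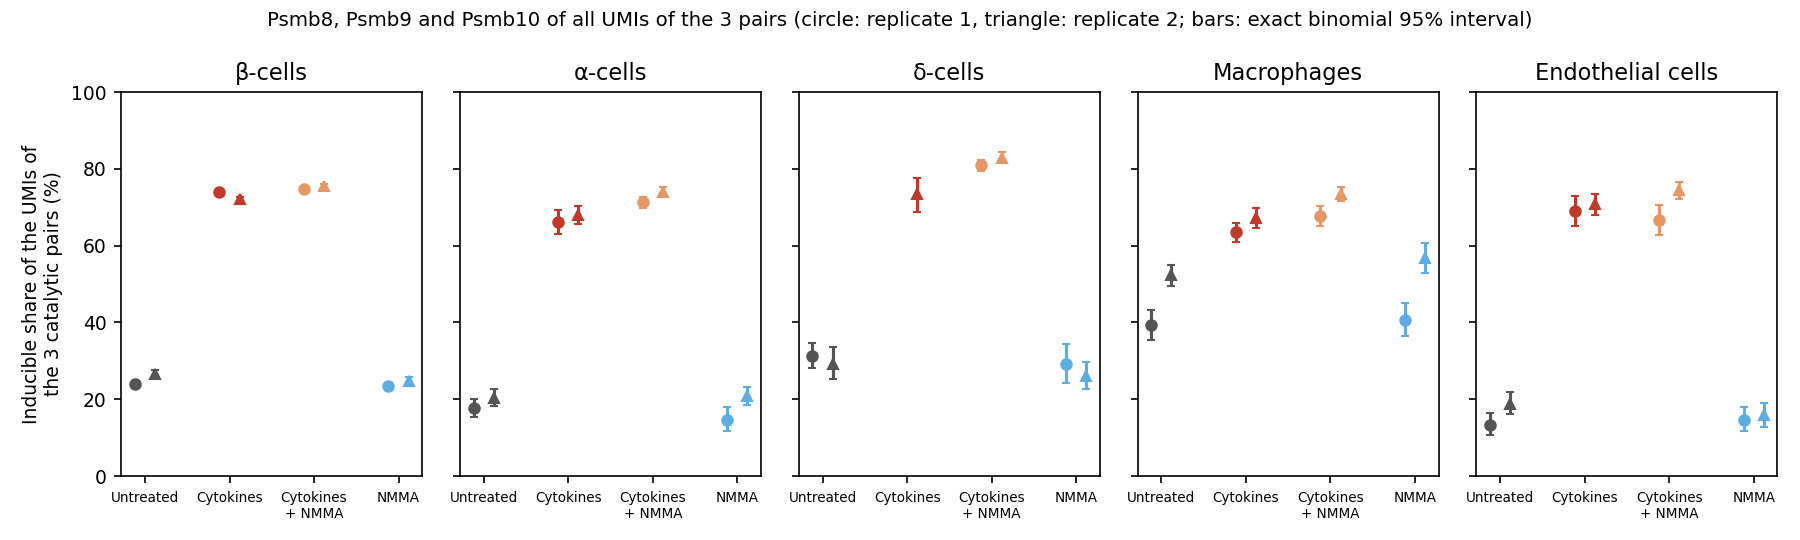
Share of Psmb8, Psmb9 and Psmb10 in the UMIs of the 3 catalytic pairs, in percent, for each class and library, by condition. Circles are replicate 1, triangles replicate 2 and bars the exact binomial 95% intervals; all libraries with cytokines, with or without NMMA, lie between 63.4 and 82.9%, and those without cytokines between 13.3 and 56.8%, with macrophages the highest of the latter.

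NMMA was added to ask which responses depend on nitric oxide. In β-cells the inducible and PA28 genes did not pass the test between cytokines with and without NMMA. *Psmb8* held 779.8 and 588 CPM, *Psmb9* 297 and 225 CPM, *Psmb10* 357 and 269 CPM, *Psme1* 381 and 288 CPM and *Psme2* 727 and 366 CPM. Their log2 changes against cytokines alone lay between -0.17 and 0.13 with SE of 0.20 to 0.46. With the replicate as a block none of them was called either, with edgeR adjusted p of 0.209 for *Psmb9* and 0.988 for *Psme1* as the lowest and the highest. Within the pools, *Psmb8* was higher with NMMA in both, and *Psmb9*, *Psmb10* and *Psme2* were lower in both. Of the 48 genes tested, 7 were lower and 1 was higher, where 8.94% of all genes tested were called lower and 10.3% higher. The share of proteasome genes called lower was thus above that of all genes, and the share called higher was below it. Counted in either direction, proteasome genes were called no more often than all genes. The test of NMMA shares the libraries with cytokines with the test above. Values are therefore given side by side, and no relation between both tests was computed.

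Of the 7 genes that were lower with NMMA, 5 encode subunits of the 19S particle, *Psmd10* a chaperone of its base, and *Psme3* the nuclear activator PA28γ. *Psmd4* held 192 and 154 CPM with cytokines, 104 and 97.9 CPM with NMMA added and 74.5 and 81.9 CPM untreated (log2 change with NMMA -0.78 ± 0.14 (SE), edgeR adjusted p = 0.00876). *Psmd12* held 154 and 121, 86.8 and 83.3 and 70.4 and 78.0 CPM in the same order (-0.69 ± 0.15 (SE), edgeR adjusted p = 0.0153), and *Psmd10* 33.4 and 29.1, 19.9 and 18.5 and 15.3 and 17.6 CPM (-0.70 ± 0.14 (SE), edgeR adjusted p = 0.0108). In each of these genes the libraries with NMMA lay between the untreated libraries and those with cytokines alone, or close to the untreated ones. *Psme3* (-0.79), *Psmc2* (-0.55), *Psmd8* (-0.52) and *Psmd14* (-0.49) were lower too. *Psme4*, the gene that fell with cytokines, was higher, at 23.6 and 28.2 CPM with cytokines, 47.1 and 50.9 CPM with NMMA added and 46.9 and 51.6 CPM untreated (0.92 ± 0.13 (SE), edgeR adjusted p = 0.00387). In this fit, which leaves out the pairing of the replicates, no subunit of the 20S core was called, and 5 of 17 subunits of the 19S particle were. This division depends on the fit, since the core subunit *Psma4* was called higher when scaled by total UMIs.

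These calls are sensitive to single libraries. They numbered 1 without cytokines replicate 1, 2 without cytokines and NMMA replicate 1, 2 without cytokines and NMMA replicate 2 and 12 without cytokines replicate 2, and only *Psme4* was called in every such fit. With the replicate as a block, 4 genes were higher and 21 lower, among them all 8 called without it. The share of all genes called in that fit is not given here, so the count is not read as particular to proteasome genes. With scaling by total UMIs, which shifts the median of all genes by 0.22, 2 were higher (*Psme4* and *Psma4*) and 4 lower, and *Psmc2*, *Psmd8* and *Psmd14* were no longer called.

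**Figure D4:**
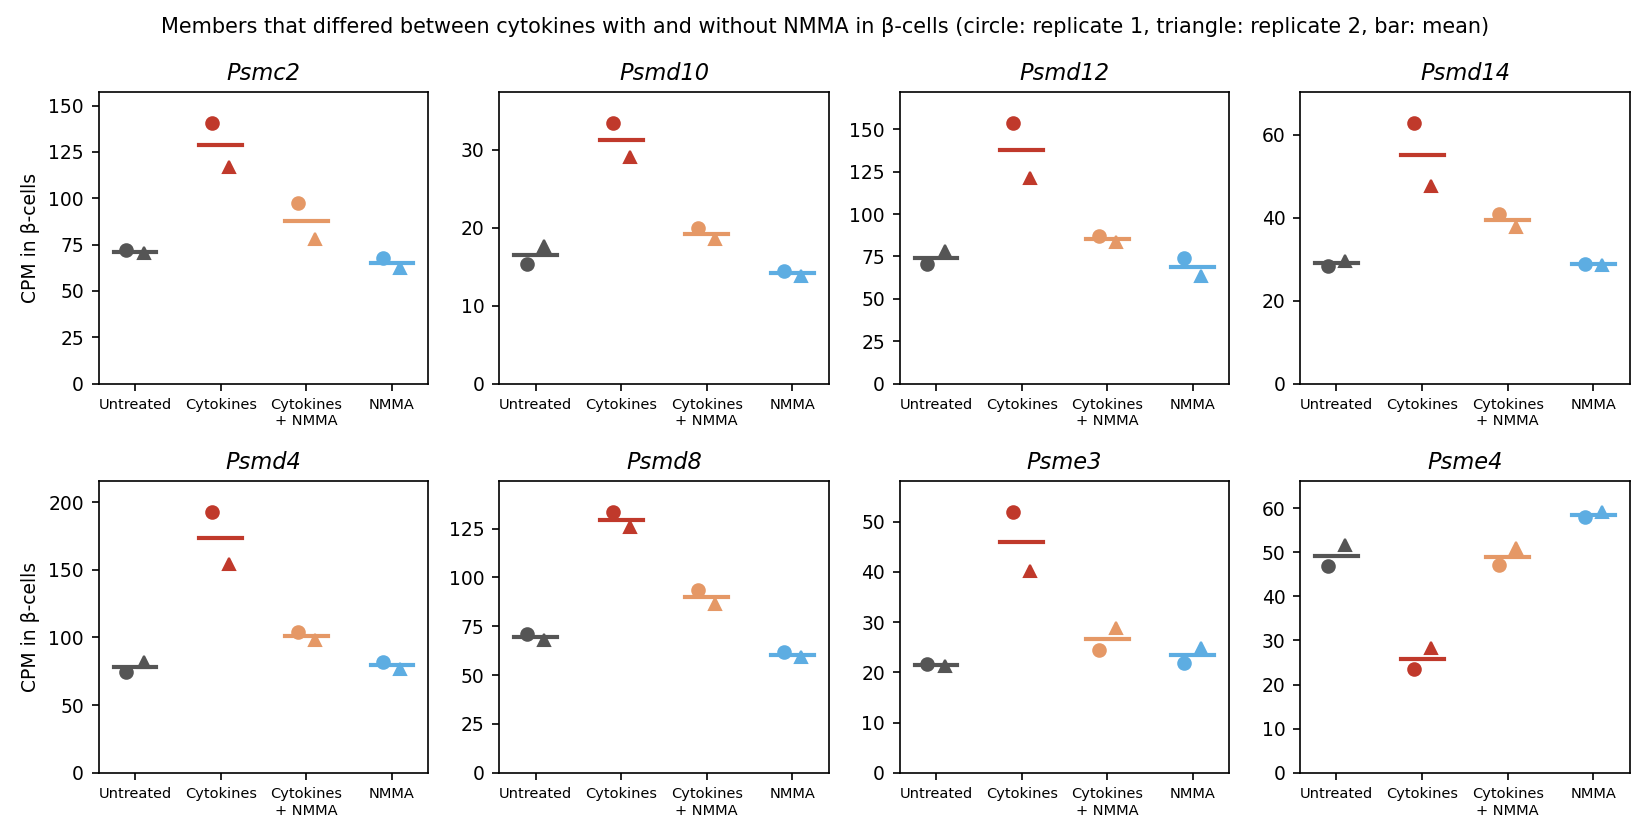
Levels, in CPM, of the 8 proteasome genes that differed between cytokines with and without NMMA in β-cells, by condition, on axes that start at 0. Circles are replicate 1, triangles replicate 2 and bars the mean of both; in 7 genes the libraries with cytokines alone are the highest and in Psme4 they are the lowest, at 23.6 and 28.2 CPM.

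Against untreated β-cells, cytokines with NMMA left 17 of 48 genes higher and none lower, where 12.9% of all genes tested were called higher. Of the 20S core, 7 of 14 constitutive subunits were called, such as *Psma5* (80.00 and 66.0 CPM untreated and 184 and 129 CPM, log2 change 1.10 ± 0.24 (SE), edgeR adjusted p = 0.0115), and of the 19S particle 2 of 17, *Psmd7* (0.53) and *Psmd8* (0.38). The count was 8 without untreated replicate 1, 8 without cytokines and NMMA replicate 1, 7 without untreated replicate 2 and 35 with the replicate as a block. NMMA alone changed none of the 48 genes in edgeR's test, where 0.0% of all genes tested were called, none at an unadjusted p under 0.05 and none with DESeq2, and 1 with the replicate as a block. *Psmb8* held 40.9 and 36.9 CPM and *Psmb5* 139.5 and 98.1 CPM with NMMA alone.

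α-cells, the glucagon cells, raised the same 5 inducible and PA28 genes. *Psmb8* went from 53.9 and 48.0 CPM untreated to 454 and 457 CPM with cytokines (log2 change 3.16 ± 0.24 (SE), edgeR adjusted p = 5.11e-08), *Psmb9* from 17.5 and 17.9 to 201 and 187 CPM (3.45 ± 0.27 (SE), edgeR adjusted p = 5.79e-08) and *Psmb10* from 59.5 and 66.8 to 279 and 245 CPM (2.05 ± 0.25 (SE), edgeR adjusted p = 1.26e-05). *Psme1* rose by 1.99 and *Psme2* by 1.78 on the log2 scale. Among the constitutive subunits, more were called higher than lower, as given below. The lower ones were *Psmb5* and *Psmb3*, and a smaller share of the proteasome genes was called lower than of all genes tested. *Psmb5* fell from 246 and 201 CPM to 88.4 and 149 CPM (-0.89 ± 0.24 (SE), edgeR adjusted p = 0.0119), and *Psmb3*, a noncatalytic β-ring subunit, from 167 and 140.3 to 80.7 and 77.5 CPM (-0.96 ± 0.21 (SE), edgeR adjusted p = 0.00265). Both genes had positive values in β-cells, 0.53 and 0.45, that were not called.

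In all, 12 of 48 genes were higher and 2 lower in α-cells, where 12.9% of all genes tested were called higher and 8.87% lower. Besides *Psme2b*, the other genes called higher were *Psma2* (0.70), *Psma3* (0.84), *Psma7* (0.88), *Psmd4* (0.80), *Psmd7* (0.57) and *Psmd8* (1.07). Scaling by total UMIs shifts the median of all genes by -0.50 and gave 7 higher and 11 lower, and besides the inducible and PA28 genes *Psmd8* was still called higher. With the replicate as a block, 18 were higher and 4 lower. *Psmb5* was not called without untreated replicate 1 (log2 change -0.74) or without cytokines replicate 1 (-0.53). The 9 β-cell markers took 1.35 to 2.33% of the UMIs of α-cell sums untreated and 5.33 to 5.75% with cytokines, and their part in these values was not tested. The inducible share of the catalytic pairs was 17.7% and 20.5% in untreated α-cells and 66.1% and 67.9% with cytokines.

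With NMMA, the inducible genes of α-cells were higher than with cytokines alone. *Psmb8* reached 785 and 840.3 CPM (log2 change 0.84 ± 0.22 (SE), edgeR adjusted p = 0.0184), *Psmb9* 292 and 349 CPM (0.73 ± 0.23 (SE), edgeR adjusted p = 0.046) and *Psmb10* 471 and 489.6 CPM (0.88 ± 0.23 (SE), edgeR adjusted p = 0.0217). *Psmb5* and *Psmb3*, the genes that fell with cytokines, were higher as well, at 288 and 256 CPM (1.17 ± 0.24 (SE), edgeR adjusted p = 0.00416) and 188 and 165 CPM (1.16 ± 0.21 (SE), edgeR adjusted p = 0.00163). For *Psmb5* both libraries lay above both untreated ones, and for *Psmb3* they overlapped the untreated ones. The share of all genes in such an order was not counted, so no change from untreated is read from it. *Psma4* (0.85) and *Psma5* (0.80) were also higher, and *Psmd4* (-0.70) and *Psmd8* (-0.89) lower, as in β-cells. That makes 7 higher and 2 lower of 48, where 5.32% and 5.7% of all genes tested were called. The count was 4 without cytokines replicate 1, without cytokines replicate 2, and without either library with cytokines and NMMA, and only *Psmb3* was called in every leave-one-out fit. Scaled by total UMIs, 18 were higher and none lower, with the median of all genes shifted by 0.41. The calls of *Psmb9* and *Psmd4* were lost with DESeq2. The β-cell markers took 2.70 to 6.83% of the UMIs with cytokines and NMMA. The α-cell markers took 16.8 to 19.4% untreated, 13.2 to 21.5% with cytokines and 8.43 to 15.2% with NMMA added. The PP-cell markers took 4.99 to 5.06%, 4.68 to 5.97% and 4.49 to 8.71% in the same order. Most α-cells with cytokines alone lay in one cluster (52 and 64 cells), with Hspa1a and Hspb1 among its 10 leading genes, and most of those with NMMA added in another (87 and 91 cells), with 1 marker of α-cells among its 10 leading genes. The marker score of that second cluster was 0.677 for α-cells and 0.670 for PP-cells. Cells named PP numbered 36 and 26 untreated, 3 and 3 with cytokines and 2 and 3 with NMMA added. The sums of α-cells may thus not hold the same cells in each condition. The part of this separation and of the marker shifts in the values above was not tested.

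Whether α-cells respond differently from β-cells was tested as an interaction, with the library as a block. Of 48 genes, 7 had a smaller response in α-cells and none a larger one, where 2.05% of all genes tested were called smaller. *Psmb3* differed most (α minus β -1.36 ± 0.21 (SE), edgeR adjusted p = 7.54e-06). The others were *Psmd13* (-0.86), *Psma6* (-0.79), *Psme2* (-0.79), *Psmb7* (-0.78), *Psmb4* (-0.77) and *Psmc3* (-0.75). The difference of *Psmb5* did not pass (-1.35 ± 0.40 (SE), edgeR adjusted p = 0.135), though DESeq2 called it. Those of *Psmb8* (-0.69 ± 0.24 (SE), edgeR adjusted p = 0.111) and *Psmb9* (-0.53 ± 0.33 (SE), edgeR adjusted p = 0.457) did not pass either. The count was 1 without untreated replicate 1, 2 without cytokines replicate 1, 3 without untreated replicate 2, 12 without NMMA replicate 1 and 12 without NMMA replicate 2, and *Psmb3* was called in all of these. DESeq2 called 3 and scaling by total UMIs 27, all smaller in α-cells.

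**Figure D5:**
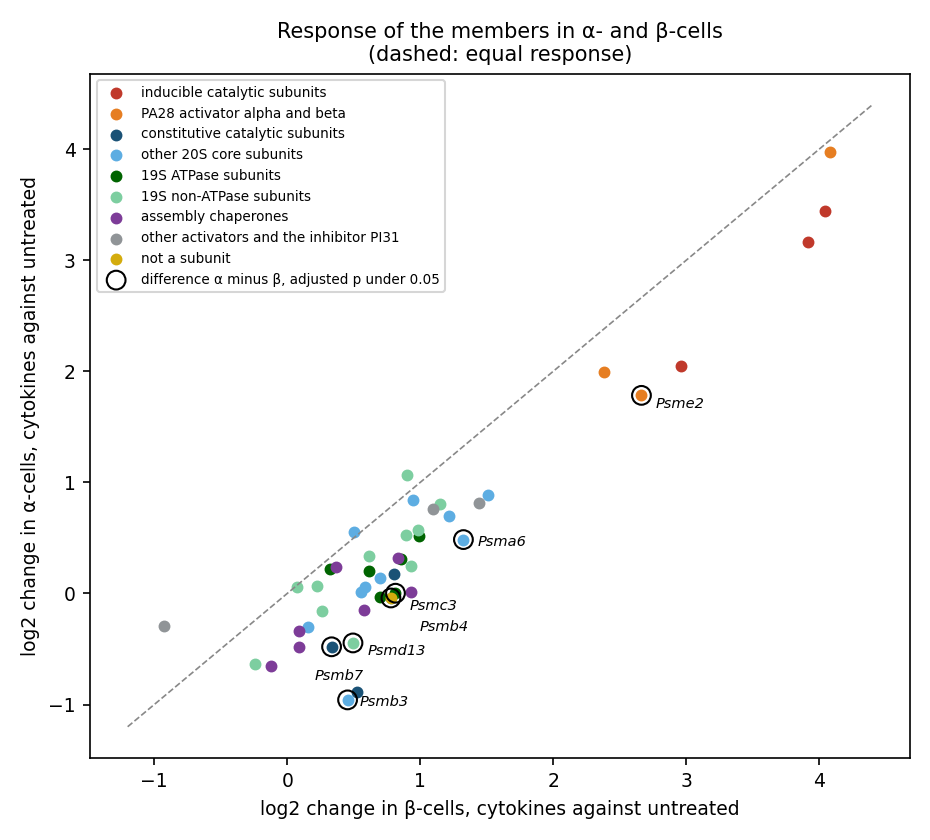
Log2 change with cytokines against untreated of each proteasome gene in β-cells (horizontal axis) and α-cells (vertical axis), coloured by role, with a dashed line of equal response. Rings mark the 7 genes whose difference passed the test; Psmb3 lies at 0.45 in β-cells and -0.96 in α-cells, and most points lie below the line.

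δ-cells, the somatostatin cells, had 7 of 47 genes higher with cytokines, where 4.71% of all genes tested were called higher, on 1 library with cytokines. *Psmb8* stood at 111 and 99.0 CPM untreated and 929 CPM in that library (log2 change 3.14 ± 0.26 (SE), edgeR adjusted p = 9.08e-08), and *Psmb9* at 27.9 and 33.5 CPM and then 433 CPM (3.82 ± 0.28 (SE), edgeR adjusted p = 1.33e-08). *Psmb10* (1.86), *Psme1* (1.88), *Psme2* (1.31), *Psmd1* (1.16) and *Psmd7* (1.13) were higher too, and DESeq2 called 4 genes. With NMMA, where 2 libraries exist, *Psmb8* held 1588 and 1693 CPM and *Psmb9* 618 and 680.1 CPM. Against the library with cytokines alone, *Psmb10* (896 and 846 CPM, log2 change 1.24 ± 0.28 (SE), edgeR adjusted p = 0.0135) and *Psme2* (1239 and 927 CPM, 1.49 ± 0.31 (SE), edgeR adjusted p = 0.0084) were higher. These are 2 of 47 genes, where 1.25% of all genes tested were called higher, none without cytokines and NMMA replicate 1, and 4 higher and 1 lower with the replicate as a block. Total UMIs as scale gave 2 higher and 1 lower. The difference of response from β-cells passed for *Psmd1* (1.11 ± 0.35 (SE), edgeR adjusted p = 0.0425, larger in δ-cells) and for *Psma6* (-1.30 ± 0.36 (SE), edgeR adjusted p = 0.0161), 1 of 48 in each direction, where 1.55% and 2.06% of all genes tested were called. The median difference over all genes tested was -0.37 in this fit, and the count ran from 0 to 6 when libraries were left out. Marker lists moved as well, and their part was not tested. The PP-cell list took 9.82 to 12.5% of the δ-cell UMIs untreated and 3.07% with cytokines, the δ-cell list 5.91 to 7.83% and 3.31%, and the β-cell list 3.601 to 4.15% and 1.20%. The macrophage list took 0.0102 to 0.0110% untreated, 0.0336% with cytokines and 0.0715 to 0.145% with NMMA added.

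Macrophages held the inducible genes at a high level before any cytokine. Untreated, *Psmb8* stood at 432 and 628 CPM and *Psmb9* at 130.3 and 235 CPM, and with cytokines at 1076 and 1469 CPM (log2 change 1.26 ± 0.26 (SE), edgeR adjusted p = 0.00978) and 502 and 579 CPM (1.54 ± 0.44 (SE), edgeR adjusted p = 0.104). *Psmb10* (1.58 ± 0.32 (SE), edgeR adjusted p = 0.00848), *Psme1* (1.69 ± 0.23 (SE), edgeR adjusted p = 0.0004) and *Psme2* (1.70 ± 0.23 (SE), edgeR adjusted p = 0.000307) rose, and *Psma5* was the one constitutive subunit called, from 175 and 191 to 403 and 362 CPM (1.06 ± 0.28 (SE), edgeR adjusted p = 0.0419). Thus 5 of 44 genes were higher and none lower, where 3.82% of all genes tested were called higher. *Psmb8* and *Psmb10* lost their calls without untreated replicate 1 and without cytokines replicate 2, with 2 genes called in each of these fits, while *Psmb9* was called with DESeq2 and with the replicate as a block, which gave 8 calls. The call of *Psma5* was lost with DESeq2, with total UMIs as scale and without any single untreated library or library with cytokines alone. NMMA in addition to cytokines changed none of 44 genes in edgeR's test (1 at an unadjusted p under 0.05, 0 with DESeq2), where 0.116% of all genes tested were called.

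The response of macrophages was smaller than that of β-cells for 4 of 48 genes and larger for none, where 3.06% of all genes tested were called smaller. They are *Psmb8* (macrophage minus β -2.41 ± 0.26 (SE), edgeR adjusted p = 1.15e-17), *Psmb9* (-2.24 ± 0.31 (SE), edgeR adjusted p = 2.05e-09), *Psmb10* (-1.15 ± 0.30 (SE), edgeR adjusted p = 0.00701) and *Psme2b* (-3.14 ± 0.90 (SE), edgeR adjusted p = 0.0169). *Psmb8* and *Psmb9* were called in every leave-one-out fit and with DESeq2. The count was 2 without cytokines replicate 1 and without untreated replicate 2, 10 without cytokines replicate 2, and 8 without NMMA replicate 1 or without either library with cytokines and NMMA. The inducible share of the catalytic pairs rose from 39.3% and 52.2% to 63.4% and 67.1% in macrophages. The untreated libraries already lay above those of every other class. The β-cell markers took 1.85 to 4.36% of the UMIs of untreated macrophages and 0.228 to 0.675% of those with cytokines, and their part was not tested.

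Endothelial cells, which line the islet capillaries, raised the inducible subunits with cytokines. *Psmb8* went from 67.2 and 108 CPM to 1310.2 and 1719 CPM (log2 change 4.09 ± 0.32 (SE), edgeR adjusted p = 2.01e-07), *Psmb9* from 23.0 and 25.3 to 288 and 282 CPM (3.53 ± 0.30 (SE), edgeR adjusted p = 3.44e-07) and *Psmb10* from 55.7 and 63.4 to 412 and 414 CPM (2.78 ± 0.25 (SE), edgeR adjusted p = 6.03e-07). *Psme1* (2.35), *Psme2* (2.27) and the core chaperone *Psmg4* (1.40) completed the 6 of 46 genes that were higher, with none lower, where 4.65% of all genes tested were called higher. The call of *Psmg4* was lost with DESeq2, with total UMIs, and without untreated replicate 1, cytokines replicate 2 or either library with cytokines and NMMA. *Psmb5* held 413 and 379 CPM untreated and 372 and 419.6 CPM with cytokines (0.0047 ± 0.22 (SE), edgeR adjusted p = 1). NMMA with cytokines changed none of 46 genes in edgeR's test (0 at an unadjusted p under 0.05, 0 with DESeq2), where 0.0% of all genes tested were called. The inducible share went from 13.3% and 18.8% to 69.1% and 70.8%. Compared with β-cells, 4 of 48 responses were smaller, where 3.76% of all genes tested were: *Psmc5* (-0.98), *Psmd4* (-0.91), *Psma6* (-0.87) and *Psma7* (-0.80), all constitutive. None of them was called without untreated replicate 1, without cytokines replicate 1 or without untreated replicate 2. Of the endothelial UMIs, endothelial markers took 1.13 to 1.32% untreated and 0.640 to 0.962% with cytokines, mesenchymal markers 0.288 to 0.411% and 0.144 to 0.176%, and β-cell markers 0.474 to 0.487% and 0.227 to 0.235%, and their part was not tested.

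At rest, macrophages differed from β-cells both in the constitutive core and in the inducible genes, and the other classes are given after them. Macrophages had 36 of 46 genes at a higher level than β-cells and none lower, where 26.7% of all genes tested were called higher. This covered all 14 constitutive core subunits, such as *Psmb5* (log2 difference 1.43 ± 0.15 (SE), edgeR adjusted p = 1.56e-14), and the inducible *Psmb8* (3.32 ± 0.16 (SE), edgeR adjusted p = 1.39e-33) and *Psmb9* (3.04 ± 0.18 (SE), edgeR adjusted p = 3.35e-28), which differed most. Endothelial cells had 27 higher and 2 lower, where 29.9% and 31.9% of all genes tested were called. *Psmc4* (1.75), *Psmc3* (1.52) and *Psmb3* (1.31) were higher, while *Psmb10* (-0.50) and *Psmg4* (-0.81) were lower. None of the other inducible or PA28 genes was called between endothelial and β-cells. The endothelial call of *Psmb10* was lost with DESeq2 and with total UMIs as scale, and that of *Psmg4* with total UMIs.

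α-cells had 15 genes higher and 3 lower than β-cells at rest, where 14.7% and 17.0% of all genes tested were called. The higher genes included 10 of 14 constitutive core subunits, such as *Psmb3* (0.66 ± 0.15 (SE), edgeR adjusted p = 0.000112) and *Psmb5* (0.47 ± 0.14 (SE), edgeR adjusted p = 0.00552), but none of the inducible and PA28 genes. *Psme4* (-0.71), *Psme3* (-0.53) and *Psmd3* (-0.39) were lower. δ-cells had 3 genes higher, *Psmb8* (0.68 ± 0.18 (SE), edgeR adjusted p = 0.00197), *Psme1* (0.56 ± 0.16 (SE), edgeR adjusted p = 0.00465) and *Psmb10* (0.49 ± 0.17 (SE), edgeR adjusted p = 0.0241), and 1 lower, *Psme4* (-0.82 ± 0.20 (SE), edgeR adjusted p = 0.000634), where 11.4% and 13.0% of all genes tested were called. Both shares of proteasome genes called in δ-cells were below those of all genes tested. The call of *Psmb10* in δ-cells was lost with DESeq2 and without a low-count filter. The counts depend on the scale. By total UMIs, 38 genes were higher and none lower in α-cells, 35 and none in δ-cells and 41 and none in endothelial cells, with the median of all genes shifted by 0.49, 0.57 and 0.82.

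Not every β-cell exposed to cytokines held *Nos2*, so cells with and without a *Nos2* UMI were compared within each of the 4 libraries with cytokines, where a cell's side was decided after thinning to 10000 UMIs. Sides held 517 and 588 cells (with and without *Nos2*) in cytokines replicate 1, 193 and 283 in replicate 2, 426 and 198 with NMMA in replicate 1 and 209 and 148 in replicate 2. *Psmb9* was at 383, 304, 304 and 248 CPM in the cells with *Nos2* and at 261, 192, 226 and 177 CPM in those without, in the order cytokines replicate 1 and 2 and then the same with NMMA (log2 difference 0.53 ± 0.07 (SE), edgeR adjusted p = 2.13e-06). *Psmb10* (0.46 ± 0.07 (SE), edgeR adjusted p = 2.17e-05), *Psme2* (0.42 ± 0.07 (SE), edgeR adjusted p = 0.000187), *Psme1* (0.38 ± 0.07 (SE), edgeR adjusted p = 0.000225) and *Psmb8* (0.37 ± 0.07 (SE), edgeR adjusted p = 0.000847) were also higher with *Nos2*. The constitutive *Psmb5* (0.13 ± 0.06 (SE), edgeR adjusted p = 0.185), *Psmb6* (0.09 ± 0.06 (SE), edgeR adjusted p = 0.48) and *Psmb7* (-0.0056 ± 0.07 (SE), edgeR adjusted p = 0.974) did not pass. In all, 10 of 48 genes were higher and none lower, where 6.77% of all genes tested were called higher, and the remaining ones were *Psme2b* (0.54), *Psmf1* (0.39), *Psma7* (0.28), *Psma6* (0.26) and *Psmg4* (0.22). The 6 inducible and PA28 genes were called in every leave-one-out fit. Cells with *Nos2* had the higher median depth in all 4 libraries, 25250 to 33036 UMIs against 24366 to 30076, and the part of depth was not tested.

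Genes that assemble, regulate or serve the proteasome were read in the same β-cell test. Of 21 tested, 15 were higher with cytokines and 2 lower, with a median log2 change of 0.53, where 23.7% and 22.4% of all genes tested were called and the median of all genes was 0.00083. *Pomp*, which matures the core, went from 159 and 152 CPM to 428 and 347 CPM (1.32 ± 0.17 (SE), edgeR adjusted p = 0.000363), and held 397 and 313 CPM with NMMA. *Zfand5* rose from 42.9 and 50.4 to 119.7 and 125 CPM (1.39 ± 0.13 (SE), edgeR adjusted p = 5.69e-05) and *Zfand2a* from 5.68 and 9.22 to 32.9 and 30.01 CPM (2.10 ± 0.24 (SE), edgeR adjusted p = 0.000206). These encode zinc finger proteins that bind the 26S proteasome, and both were lower again with NMMA, at 74.8 and 74.4 CPM (-0.71 ± 0.12 (SE), edgeR adjusted p = 0.00719) and 14.8 and 16.4 CPM (-1.01 ± 0.23 (SE), edgeR adjusted p = 0.0188).

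Of 14 genes that supply peptides to MHC class I, 12 were higher with cytokines in β-cells and none was lower, with a median of 2.38, against the same 23.7% of all genes tested. *Tap1*, the neighbour of *Psmb9*, rose from 5.15 and 5.09 CPM to 138 and 107 CPM (4.58 ± 0.21 (SE), edgeR adjusted p = 1.92e-06), and it was higher with NMMA than with cytokines alone, at 232 and 197 CPM (0.81 ± 0.17 (SE), edgeR adjusted p = 0.0148). *Irf1*, an interferon-induced transcription factor, rose from 19.8 and 20.5 to 187 and 187 CPM (3.22 ± 0.13 (SE), edgeR adjusted p = 1e-06) and stood at 294 and 276 CPM with NMMA (0.61 ± 0.12 (SE), edgeR adjusted p = 0.0112). *Nlrc5*, the transactivator of MHC class I genes, rose from 0.473 and 0.364 to 20.3 and 16.8 CPM (5.40 ± 0.29 (SE), edgeR adjusted p = 5.03e-06) and held 21.8 and 18.3 CPM with NMMA.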

How the data were processed

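Mouse islet cells of 8 libraries (2 replicates of 4 conditions) were analysed from UMI count matrices that the authors deposited per gene and barcode. Per the labels and file headers, counts were made by the authors with Cell Ranger on mm10, and the headers name 3.0.0 for replicate 1 and 6.0.0 for replicate 2. Sample labels and study methods name different versions of the capture kit. Barcodes with at least 200 genes, at most 5500 (replicate 1) or 6500 (replicate 2) genes and at most 10% mitochondrial UMIs were kept. Cells were clustered (scanpy 1.11.5, leidenalg 0.10.2, 2000 variable genes, 30 principal components, 20 neighbours, resolution 1) and named by fixed markers, and 2452 cells stayed unnamed. Doublets were scored, and left out only as an alternative.

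UMIs were summed per class and library with at least 10 cells and tested by edgeR 4.0.16 under R 4.3.3 (filter by filterByExpr, TMM factors, robust quasi-likelihood fit, Benjamini-Hochberg adjustment over all genes of a fit). Each SE was derived from the F statistic. The 4 conditions of a class were fitted together, and fits across classes have the library as a block. Of the proteasome genes, 48 were tested in β- and α-cells, 47 in δ-cells, 46 in endothelial cells and 44 in macrophages. The test of cytokines against untreated was also run on simulated data. A log2 change of 1 was recovered for 42.9% of changed genes in β-cells, 18.2% in α-cells, 11.2% in macrophages and 14.7% in endothelial cells. False calls were 10 of 146, 12 of 111, 3 of 80 and 13 of 89 in the same order. δ-cells, with 1 library with cytokines, had the lowest recovery and the largest share of false calls. A gene without a call may therefore have changed, most of all in the small classes. Alternatives were DESeq2 1.42.0, total UMIs as scale, no low-count filter, a replicate block, scored doublets left out and each library left out. Counts of calls under these alternatives stand without the share of all genes called there. They show only how the calls depend on the fit. No column of another sample was used. Another motif is not reported here. Intervals and spreads cover counting error or 2 pools only.

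Members, lists and comparisons were chosen with earlier results of these data known. Named are the inducible and catalytic subunits, the largest and smallest change of each other role in β-cells, genes of opposite sign in another class, the 3 partner genes of each list with the smallest adjusted p, and *Pomp*. Further genes given by their log2 change were chosen after their values were seen. The replicate numbers pair the libraries, because each pool was divided over the conditions. As a check, deviations from condition means correlated within replicates with r of 0.603 to 0.699 in β-cells, 0.266 to 0.444 in α-cells, 0.303 to 0.345 in δ-cells, 0.336 to 0.462 in macrophages and 0.227 to 0.390 in endothelial cells.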

Additional observations from a re-analysis of the deposited data

Results flagged for a closer look

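Between α- and β-cells, the test of the difference in the response to cytokines passed for 7 proteasome genes. The difference (α minus β, log2) was -0.78 for *Psmb7*, -0.75 for *Psmc3*, -0.77 for *Psmb4*, -0.86 for *Psmd13*, -0.79 for *Psme2*, -1.36 for *Psmb3* and -0.79 for *Psma6*, and the adjusted p of edgeR lay between 7.54e-06 and 0.0374. Between δ- and β-cells it passed for *Psmd1* (1.11) and *Psma6* (-1.3), on 1 library of δ-cells with cytokines. Between macrophages and β-cells it passed for *Psmb8* (-2.41), *Psmb9* (-2.24), *Psmb10* (-1.15) and *Psme2b* (-3.14). Between endothelial and β-cells it passed for *Psmc5* (-0.98), *Psmd4* (-0.91), *Psma6* (-0.87) and *Psma7* (-0.8).

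Mesenchymal cells entered none of the tests. In their sums (153690 to 840630 UMIs, 13 to 50 cells) the inducible share of the UMIs of the catalytic pairs was on average 59.5% with cytokines, against 11.9% untreated, which is the lowest resting share of the 6 classes measured, 63.3% with cytokines and NMMA and 14.4% with NMMA alone.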

How the results depend on the processing

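Of the counts of proteasome genes called, 17 of 21 moved by at most 1.5 times with DESeq2, which gave fewer calls for the response of δ-cells to cytokines (4) and for the differences from β-cells of α-cells (3), δ-cells (0) and macrophages (2). Total UMIs as scale gave 18 calls for NMMA in α-cells, 38 and 35 for the levels of α- and δ-cells, and 27, 1 and 7 for the differences of α-, δ- and endothelial cells. Without a low-count filter the differences gave 1 (δ-cells), 7 (macrophages) and 2 (endothelial cells), and without scored doublets the level of δ-cells gave 7. With the replicate block, which follows the pairing of the pools, calls rose to 25 for NMMA with cytokines against cytokines, 35 against untreated and 1 for NMMA alone in β-cells, 22 for cytokines in α-cells, 8 in macrophages and 5 for NMMA in δ-cells, and no other count moved beyond 1.5 times. Leaving out each library gave 1 to 12 calls in β-cells for cytokines with NMMA against cytokines, 7 to 17 against untreated and 0 for NMMA alone. For cytokines alone it gave 24 to 34 in β-cells, 10 to 17 in α-cells, 5 to 8 in δ-cells, 2 to 6 in macrophages and 5 to 6 in endothelial cells, for NMMA 4 to 8 in α-cells and 0 to 2 in δ-cells, and 1 to 12, 0 to 6, 2 to 10 and 0 to 6 for the differences of α-cells, δ-cells, macrophages and endothelial cells, and 7 to 13 for the split by *Nos2*. Where an arm keeps 1 library, it is assumed to vary like the other groups. Levels at rest come from 2 untreated libraries, and without either of them no degrees of freedom remain for a test. The response of δ-cells could not be fitted without cytokines replicate 2, the one library it has. The share of all genes called under each alternative is not given here, so these counts are not read as particular to proteasome genes. The causes of these shifts were not tested.

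Changes near 0 turned their sign. With cytokines, *Psmb5* in endothelial cells gave -0.19 by total UMIs, -0.014 without a filter and -0.086 to 0.10 without single libraries. *Psmb6* gave -0.33 in α-cells and -0.12 in endothelial cells by total UMIs, -0.092 in δ-cells without a filter, and -0.089 to 0.47, -0.033 to 0.092 and -0.064 to 0.24 in α-, δ- and endothelial cells without single libraries. *Psmb7* gave -0.10 without a filter and -0.069 with the replicate block in δ-cells, -0.030 in macrophages by total UMIs, and -0.056 to 0.098, -0.0045 to 0.19 and -0.026 to 0.45 in δ-cells, macrophages and endothelial cells without single libraries. None of these values was called. Depth limits the small classes most, where 160695 UMIs in a δ-cell sum leave few UMIs for low genes.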
